A study of Mus musculus with 6 samples.

Results

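Nuclear genes for mitochondrial respiration, mitochondrial translation, protein import and membrane fusion were examined for alternative RNA processing in mouse brain. The members were all array events of genes whose symbols begin with Nduf, Cox and a digit, Atp5, Uqcr, Sdha to Sdhd, Mrpl or Mrps and a digit, Timm, Tomm, Immt, Mfn or Opa1. *Mrpl24* was left out, as was any event in a stretch of chromosome 19 around *Nxf1*, where the rule found 0 further events. The rule gave 92 events of 68 genes, out of 13002 events of 7788 genes in the table. Of the members, 50 genes had 1 event and 18 had 2 or more.

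The series compared brain RNA from 6 mice of a B6.CAST congenic line on Affymetrix MJAY splicing arrays, 1 array per animal. *Nxf1* encodes the major exporter of mRNA from the nucleus, and 3 animals were homozygous for the *Nxf1* B6 allele and 3 for the *Nxf1* CAST allele. The animals formed 3 same-sex littermate pairs. Pair 1 was female and 46 d old in both genotypes, pair 2 was male with the B6 animal at 22 d and the CAST animal at 23 d, and pair 3 was female and 23 d old in both. The CAST allele was carried into B6 by backcrossing, so CAST animals also hold other CAST genes linked to it on chromosome 19, and a linked gene cannot be told apart from *Nxf1* here. The comparison asks whether *Nxf1* genotype moves alternative processing of these transcripts.

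The deposited table holds 1 exclusion and 1 inclusion intensity per event for set A and for set B, each pooled over the arrays of its set. The error between animals could therefore not be computed, and no value below carries an SD or a p-value. The table does not name the genotype of either set. Its header defines the change as mutant over wild type and the ratio runs from set A to set B, so set B was likely *Nxf1* CAST and set A *Nxf1* B6. The isoform shift used here is log2 of exclusion over inclusion in set B minus the same in set A. A shift above 0 means relatively more exclusion of the alternative segment in set B. For alternative starts and ends, exclusion and inclusion are only the table's names for the alternative paths, and no segment need be left out. As the threshold, 0.5 on this log2 scale was used in either direction. Shifts compare 1 event with itself, and intensities of different probe sets were not read as relative transcript levels. Positions are printed as the table lists them, and their genome build is not given in the sources used here.

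The respiratory chain passes electrons through complexes I to IV of the inner mitochondrial membrane, and ATP synthase uses the proton gradient they build. A few core subunits are encoded by mitochondrial DNA and made on mitochondrial ribosomes, whereas the subunits examined here are encoded in the nucleus, spliced and exported as mRNA, translated in the cytosol and imported through the TOM and TIM complexes. Neurons rely heavily on this system, and fusion of mitochondria by mitofusins and Opa1 keeps the network supplied along axons.

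Of the 92 events, 91 from 67 genes had an exclusion path with values in both sets. The exception was a complex event of *Ndufs1*, which encodes the largest complex I subunit: its 3 alternative paths differed by -0.01, -0.08 and -0.12 (log2, set B over set A) against their common path. Among the 91 events, 12 (13.2%) had an absolute shift over 0.5, 5 with more exclusion and 7 with more inclusion in set B. Over all 12553 events with a shift the share was 7.24%, with 4.52% over 0.5 and 2.72% under -0.5. The middle of the distribution was alike: the median absolute shift was 0.16 for the members and 0.17 for all events. The shift was above 0 in 44 of the 91 members (48.4%) and in 55.4% of all events. The 12 events came from 12 of 67 member genes (17.9%), where 11.4% of all 7631 genes had at least 1 such event. The largest member shift, 0.93 in size, ranked 44 of 12553, and the members held 0 of the 28 events over 1. After adding 50 to each intensity, 5 of the 12 stayed past the threshold (5.49% of members, 3.13% of all events).

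**Figure D1:**
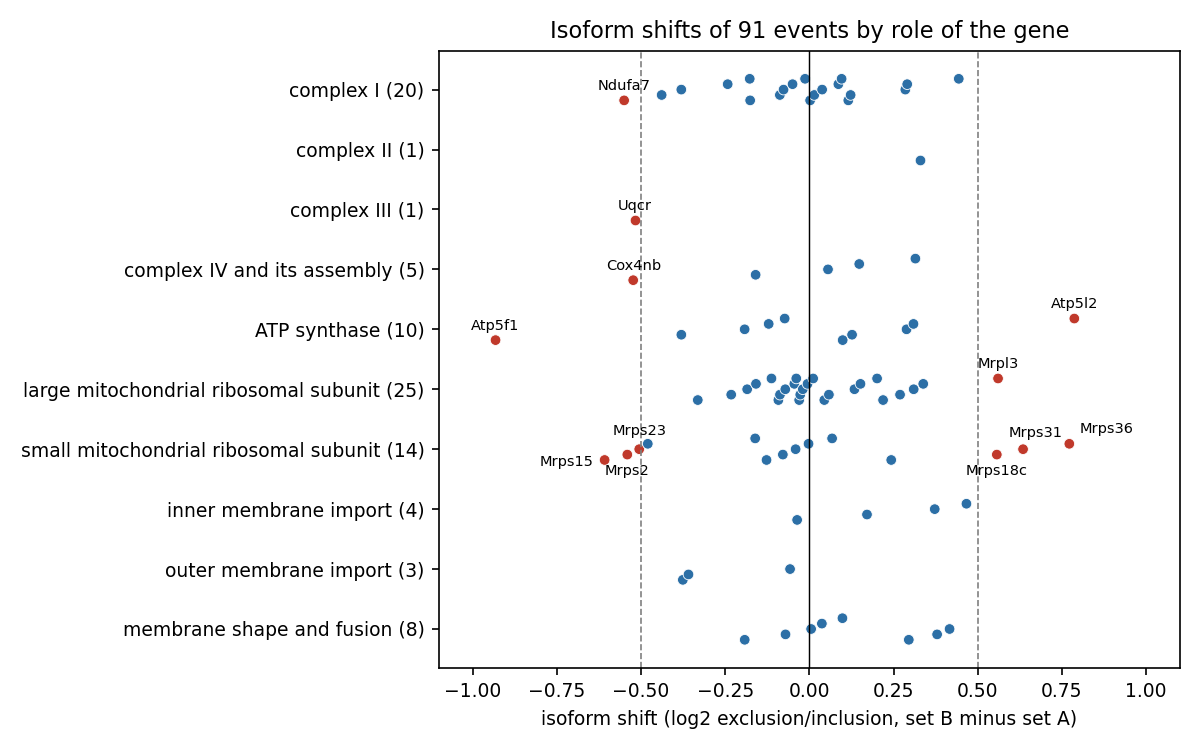
Isoform shift (x axis, log2) of each of the 91 member events with a value, by the role that the gene symbol names (y axis, number of events in parentheses). The symbol need not match the protein: *Cox4nb* is not a complex IV gene, and *Mrps36*, *Atp5s* and *Atp5sl* may not belong to their groups. Each point is 1 event, red where the absolute shift is over 0.5 (dashed lines), and points are spread vertically for legibility. The small mitochondrial ribosomal subunit has 6 of the 12 red points, 3 on each side, while the import and fusion groups, with 15 events, have 0.

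The Mrps symbols, named for the small subunit of the mitochondrial ribosome, which binds mRNA and decodes it, held 6 of the 12. They include *Mrps36*, whose protein may not belong to the subunit. Of the 14 events under these symbols, from 10 genes, 6 (42.9%) were past the threshold. In set B 3 had more exclusion, *Mrps36* among them, and 3 more inclusion. The median absolute shift of the 14 was 0.36. The share over all events was 7.24%, and with pooled values the difference could not be tested. With 50 added to each intensity, 3 of 14 were past it (21.4%, against 3.13% of all events).

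The *Mrps36* event was a 182-base cassette exon (chr13:101506208-101511143, minus strand). Its protein was named for the ribosome and is now described as a component of the 2-oxoglutarate dehydrogenase complex of the citric acid cycle. Exclusion intensity went from 235 (set A) to 368 (set B), and inclusion intensity from 699 to 641. The shift was 0.77, a 1.71-fold higher exclusion to inclusion ratio in set B, and most of it came from the exclusion path (0.65, log2).

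The *Mrps31* event was a 288-base cassette exon (chr8:23522036-23530219, plus strand). *Mrps31* encodes a small subunit protein. Exclusion intensity went from 155 (set A) to 217 (set B), inclusion intensity from 336 to 303, and the shift was 0.63. *Mrps18c* encodes 1 of the bS18 homologues of the subunit, and its 58-base cassette exon (chr5:101230990-101233009, plus strand) was next. Its exclusion intensity went from 69 (set A) to 93 (set B), inclusion intensity from 287 to 263, and the shift of 0.56 became 0.37 with 50 added to each intensity. In these 3 cassettes the exclusion path was brighter in set B than in set A and the inclusion path dimmer.

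The remaining 3 small subunit events leaned the other way. In *Mrps15*, an alternative 5' splice site over 72 bases (chr4:125724423-125724698, plus strand) had exclusion intensities of 1208 (set A) and 936 (set B) and inclusion intensities of 458 and 541, a shift of -0.61. In *Mrps2*, a 92-base intron (chr2:28324848-28324942, plus strand) had 142 and 117 for the path without the intron and 810 and 971 for the path that retains it, a shift of -0.54. In *Mrps23*, an alternative 5' splice site over 94 bases (chr11:88017987-88018690, plus strand) had exclusion intensities of 275 and 244 and inclusion intensities of 366 and 461, a shift of -0.51. All 3 encode proteins of the subunit. With 50 added, the *Mrps15* shift was -0.57, and those of *Mrps2* (-0.45) and *Mrps23* (-0.44) dropped below the threshold in size.

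Other events of the same small subunit genes were smaller. An alternative end of *Mrps15* shifted by -0.08, and a 459-base retained intron and a 377-base complex event of *Mrps2*, which overlaps the 92-base intron, shifted by -0.00 and -0.04. *Mrps10* came within reach of the threshold with an alternative start (-0.48), and its 70-base cassette exon gave -0.13. When shifts were centred on the median of all events (0.03), the *Mrps10* start passed at -0.51 and the small subunit count became 7 of 14.

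The large subunit, which forms the peptide bonds, had fewer. Of its 25 events from 15 genes, 1 (4.0%) was past the threshold (7.24% over all events), and the median absolute shift was 0.11. That event was an alternative 3' splice site over 93 bases in *Mrpl3* (chr9:104955842-104956844, plus strand), which encodes a protein of the subunit. Its exclusion intensity went from 235 (set A) to 290 (set B), its inclusion intensity from 797 to 667, and its shift was 0.56, or 0.495 with 50 added, while an alternative end of the same gene shifted by 0.01. The next in size were a 155-base cassette exon of *Mrpl15* (0.34), with exclusion intensities of 77 and 92, and a 238-base cassette exon of *Mrpl14* (-0.33), with inclusion intensities of 122 and 162. *Mrpl4* had 4 retained introns, the most events of any member, and they did not share a direction: the 487-base intron shifted by 0.20, the 592-base intron by 0.15, the 88-base intron by -0.09 and the 80-base intron by -0.23. *Mrpl21* and *Mrpl49* lie on chromosome 19 outside the stretch left out, and their events shifted by -0.04 and -0.09.

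**Figure D2:**
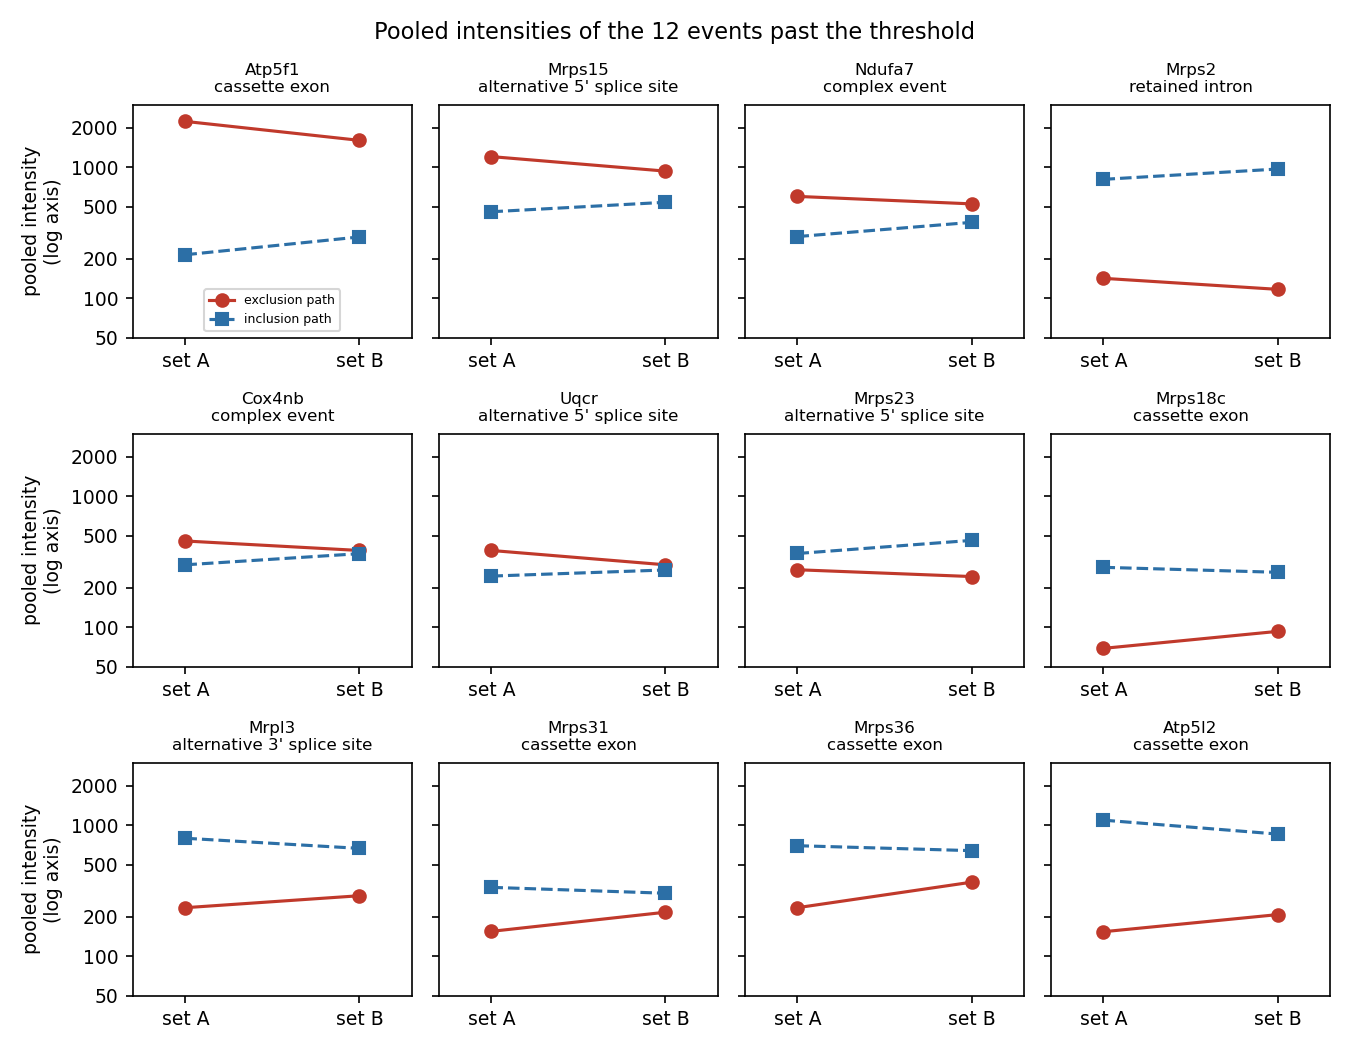
Pooled intensities (y axis, log scale) in set A and set B for the 12 member events past the threshold, ordered from the most negative shift (*Atp5f1*, -0.93) to *Atp5l2* (0.79). Red circles are the exclusion path and blue squares the inclusion path. In each panel 1 line goes up and the other down, and in no panel do the lines cross.

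The Atp5 symbols held the lowest and the highest member shift, with 2 of 10 events past the threshold (7.24% over all events). The 10 include *Atp5s* and *Atp5sl*, now *Dmac2l* and *Dmac2*, which RefSeq no longer names as ATP synthase genes. The highest shift belongs to an event whose symbol, *Atp5l2*, RefSeq gives to a pseudogene on another chromosome. *Atp5f1*, now *Atp5pb*, encodes subunit b of the peripheral stalk that holds the catalytic head in place. Its 167-base cassette exon (chr3:105758959-105761779, minus strand) had exclusion intensities of 2244 (set A) and 1608 (set B) and inclusion intensities of 215 and 294. The shift of -0.93, a 1.91-fold lower exclusion to inclusion ratio in set B, was split almost evenly between the exclusion path (-0.48) and the inclusion path (0.45). The other 2 events of *Atp5f1* differed from it, with -0.12 for a 1712-base retained intron and 0.29 for an alternative end, and the exclusion intensity was lower in set B in all 3 events of the gene.

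The event listed as *Atp5l2* was a 161-base cassette exon (chr9:44721549-44728692, minus strand). Exclusion intensity went from 154 (set A) to 208 (set B), inclusion intensity from 1096 to 858, and the shift was 0.79, or 0.67 with 50 added. The symbol does not match the position. RefSeq lists that name as a pseudogene, *Atp5l2-ps*, 452 long on chromosome 11, too short for an event that spans 7144 positions on chromosome 9. On chromosome 9 RefSeq has the protein-coding *Atp5l*, 7495 long, which encodes subunit g of the membrane part. The event is long enough to need a gene of that size, but overlap with *Atp5l* was not checked, since the genome builds differ. Near-identical copies could share these probes.

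The other events of the Atp5 symbols were below the threshold. A 130-base cassette exon of *Atp5j2* (subunit f) shifted by -0.38 and a 100-base cassette exon of *Atp5s* (coupling factor B) by 0.31. *Atp5c1* encodes the central gamma subunit, and its 37-base cassette exon is a known tissue-specific exon that heart and skeletal muscle leave out. Exclusion intensity went from 295 (set A) to 324 (set B), inclusion intensity from 334 to 336, and the shift was 0.13. The catalytic subunit genes *Atp5a1* and *Atp5b* gave 0.10 and -0.07.

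The Nduf symbols stand here for complex I, the NADH dehydrogenase, though not each of them, such as *Ndufaf1* and *Ndufa4l2*, need encode a subunit of it. They had 20 events from 17 genes with a shift. Of these, 1 (5.0%) was past the threshold, near the 7.24% over all events. A complex event of *Ndufa7* (chr17:33961605-33966632, plus strand), an accessory subunit, had exclusion intensities of 600 (set A) and 526 (set B) and inclusion intensities of 296 and 380, a shift of -0.55. With 50 added it was -0.49. *Ndufa5*, an accessory subunit of the peripheral arm, lay below the threshold with a 117-base cassette exon at 0.44, and *Ndufb2* with an alternative 5' splice site over 90 bases at -0.44. *Ndufs4*, whose loss causes Leigh syndrome, had neighbouring cassette exons that leaned in opposite directions: the 79-base exon shifted by -0.38, with exclusion intensities of 333 and 279, and the 74-base exon by 0.28, with 159 and 208. The core subunit genes *Ndufs3* and *Ndufv2* had cassette shifts of 0.00 and 0.09, and *Ndufb8* on chromosome 19 had shifts of -0.05 and 0.10.

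Complexes II and III had 1 event each. *Sdhc*, a membrane anchor of succinate dehydrogenase, had a 57-base cassette exon with exclusion intensities of 533 (set A) and 610 (set B), inclusion intensities of 797 and 726 and a shift of 0.33. *Uqcr*, now *Uqcr11*, encodes a small subunit of the cytochrome bc1 complex. Its alternative 5' splice site over 195 bases (chr10:79867031-79869440, minus strand) had exclusion intensities of 386 and 300 and inclusion intensities of 246 and 274, and the shift of -0.52 became -0.45 with 50 added.

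Of the 5 events caught by the Cox symbols, 1 was past the threshold (7.24% over all events), and its gene is not a respiratory gene. *Cox4nb*, now *Emc8*, neighbours a complex IV subunit gene and encodes part of the membrane protein complex of the endoplasmic reticulum. Its complex event (chr8:123184684-123191657, minus strand) had exclusion intensities of 456 (set A) and 386 (set B) and inclusion intensities of 300 and 365, a shift of -0.52, or -0.46 with 50 added. Among the complex IV genes proper, a complex event of *Cox6b2*, known as the testis form of subunit VIb, shifted by 0.31 at intensities of 157 to 242. The 101-base cassette exon of *Cox6b1*, the widely expressed form, shifted by 0.15, and an alternative end of *Cox10*, which makes the heme A precursor, by 0.06.

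Import and fusion genes had 0 of 15 events past the threshold, a count too small to set apart from the 7.24% over all events. In *Timm8b*, a small chaperone of the space between the membranes, an alternative end shifted by 0.47, with exclusion intensities of 409 (set A) and 453 (set B) and inclusion intensities of 2339 and 1875. That event spans 9007 positions, whereas the RefSeq gene is 1420 long, so its probes may reach a neighbouring gene. A 197-base cassette exon of *Timm22*, the carrier translocase, shifted by 0.37, with 95 and 110 for the exclusion path. In the outer membrane, *Tomm22*, the central receptor, had a 119-base cassette exon at -0.38, with exclusion intensities of 369 and 262, and *Tomm40l*, a homologue of the import pore, an alternative 3' splice site at -0.36.

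*Opa1*, the inner membrane fusion GTPase, is made in several spliced forms that differ in how proteases cut the protein. Its 54-base cassette exon had exclusion intensities of 56 (set A) and 68 (set B) and inclusion intensities of 111 and 101, a shift of 0.42. The 111-base cassette exon, with 502 and 489 for exclusion and 257 and 244 for inclusion, shifted by 0.04, and an 848-base retained intron by 0.01. *Immt*, the core of the complex that shapes cristae, had a 102-base cassette exon at 0.30 (234 and 244 for exclusion, 526 and 447 for inclusion) and an overlapping complex event at -0.19.

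The outer membrane fusion genes *Mfn1* and *Mfn2* had alternative starts. That of *Mfn1* shifted by -0.07, with 99 and 100 for exclusion and 442 and 469 for inclusion. That of *Mfn2* had 332 and 403 for exclusion and 2036 and 1900 for inclusion, a shift of 0.38, and an 83-base cassette exon of the gene shifted by 0.10. In all, 6 members had alternative start events, with 0 past the threshold (6.32% of all alternative starts passed), and *Mrps10* (-0.48) and *Mfn2* had the largest in size. The *Mfn2* start event spans 249 positions in the table, and the 3 *Mfn2* starts that RefSeq lists span 249 positions in GRCm38.p6, a build other than that of the table. The 250 bases before the most upstream RefSeq start are shown for these genes (*Mrps10* at chr17:47368947-47369196, plus strand, and *Mfn2* at chr4:147904910-147905159, minus strand). For *Mrps10* RefSeq lists 1 start and the start event spans 3519 positions, so its stretch was not matched to either start of the event. *Uqcr11*, chr10:80406818-80407071, minus strand, is shown to the end of a motif that crosses its start, since its window, alone among those of the 12 events' genes, held both motifs described next. Capitals mark the motifs.
Mrps10: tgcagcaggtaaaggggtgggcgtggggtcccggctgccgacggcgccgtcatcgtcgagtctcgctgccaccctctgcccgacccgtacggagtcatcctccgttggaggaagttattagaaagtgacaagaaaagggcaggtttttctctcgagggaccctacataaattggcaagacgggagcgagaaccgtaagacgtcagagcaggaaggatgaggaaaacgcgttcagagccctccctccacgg
Mfn2: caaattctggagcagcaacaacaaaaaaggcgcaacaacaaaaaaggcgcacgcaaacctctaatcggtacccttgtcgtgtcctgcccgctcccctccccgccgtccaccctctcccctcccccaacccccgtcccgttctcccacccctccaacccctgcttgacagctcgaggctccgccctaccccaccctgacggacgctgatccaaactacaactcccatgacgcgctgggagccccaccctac
Uqcr11: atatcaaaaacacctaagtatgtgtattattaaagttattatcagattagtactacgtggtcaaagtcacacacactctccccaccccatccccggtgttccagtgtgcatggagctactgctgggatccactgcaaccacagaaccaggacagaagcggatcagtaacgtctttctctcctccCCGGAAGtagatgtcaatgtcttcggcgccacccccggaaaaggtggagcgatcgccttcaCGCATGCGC

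NRF1 and the ETS factor GABP are the classical activators of nuclear respiratory genes. RefSeq promoter windows, 250 bases before to 50 after a start, were found for 56 of the 68 genes (66 windows). The NRF1 core GCGCATGCG, read on both strands, was in 3 of 66 windows (4.55%), those of *Mrpl32*, *Opa1* and *Uqcr11*, and in 1.75% of all 32851 windows. The ETS core CCGGAAG, read on both strands, was in 18 of 66 (27.3%), against 8.86% of all windows. In *Uqcr11* the ETS core began 66 bases before the start and the NRF1 core 5 bases before it, and the cores do not overlap. The *Mrps10* and *Mfn2* stretches shown hold neither string. These letters describe promoters and were not related to the splicing values.

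In all 12 events past the threshold the exclusion and inclusion paths moved in opposite directions between the sets, as they did in 82.0% of the 909 such events in the table. The larger part came from the exclusion path in 9 of the 12 and in 72.6% of the 909. Summed over both paths, intensity was lower in set B in 51 of 91 members (56.0%) and in 50.8% of all events, and the median difference was -0.04 and -0.00 (log2). Among members the difference in summed intensity ranged from -0.42 (the *Mrps17* event) to 0.27 (the *Ndufb8* cassette). The *Ndufb8* event had intensities of 60 to 179 and spans 7489 positions, whereas its RefSeq gene is 6872 long. Among role groups with 10 or more events, complex I (the Nduf symbols) had the highest median level difference (0.03) and the Atp5 symbols the lowest (-0.10). The median was -0.13 for outer membrane import (3 events) and -0.14 for complex III (1 event). Of the 10 Atp5 events, 6 were lower in set B, 3 of them of the single gene *Atp5f1*, and 4 were higher. In whole brain, fewer cells of a type and less RNA per cell cannot be told apart.

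**Figure D3:**
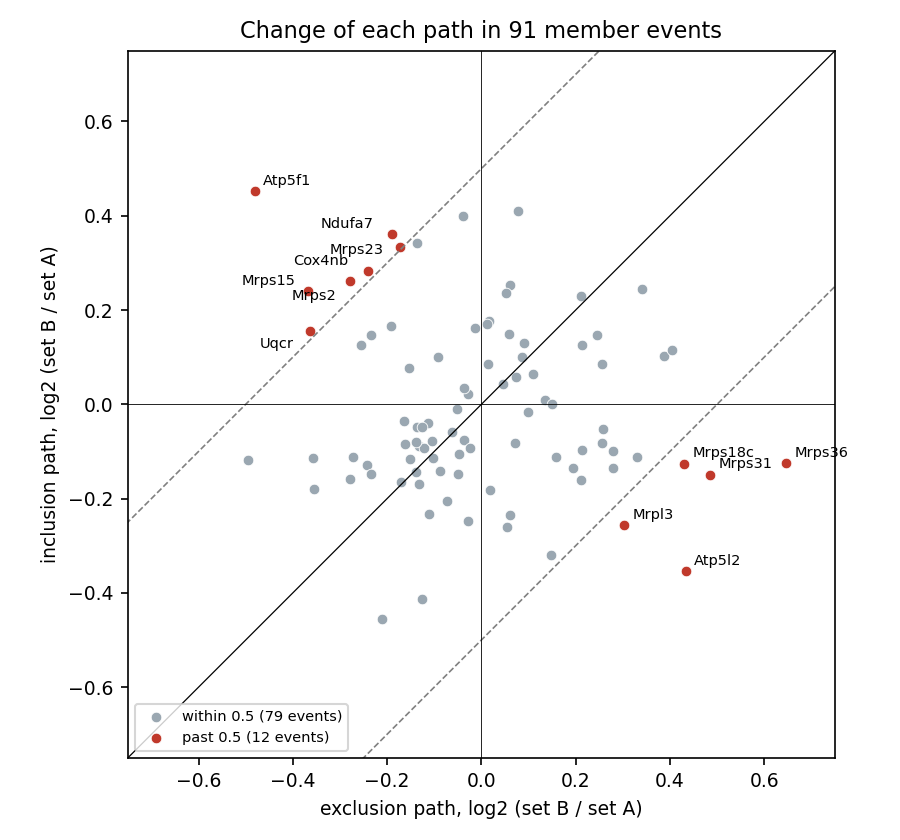
Change of the exclusion path (x axis) and of the inclusion path (y axis) between the sets, both log2 of set B over set A, for the 91 member events. Dashed lines mark a shift of 0.5 in size. The 12 red events lie in the upper left and lower right corners, where the paths move in opposite directions.

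By type, 37 of the 91 members (40.7%) were cassette exons, a larger share than among all events (29.9%). Past the threshold were 5 of the 37 cassettes (13.5%, against 8.57% of all cassettes), 4 of them with more exclusion in set B, 3 of 10 alternative 5' splice sites (30.0% against 10.8%), all with more inclusion, 2 of 9 complex events (8.38% of all), 1 of 10 retained introns (9.86% of all) and 1 of 3 alternative 3' splice sites (9.11% of all). Alternative ends had 0 of 14, where 2.78% of all alternative ends passed. The cassettes also differed in length class: the exon was a multiple of 3 bases, which keeps the reading frame when the exon is coding, in 10 of 37 members (27.0%) and in 53.2% of all 3731 cassettes with a listed length. Of the 5 cassettes past the threshold, the *Mrps31* exon is a multiple of 3. Median length was 102 bases in the members and 101 in all. Member shifts were above 0 in 24 of 37 cassettes (64.9%) and 56.7% of all.

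Of the 18 genes with 2 or more events, 8 had shifts on both sides of 0 and 10 on one side, and none had more than 1 event past the threshold. The widest range within a gene was in *Atp5f1* (1.22), followed by *Ndufs4* (0.67), and the narrowest in *Mrpl27* (0.01).

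Around the threshold, the members just inside were *Mrps23* (-0.51), *Uqcr* (-0.52) and *Cox4nb* (-0.52), and those just outside *Mrps10* (-0.48), *Timm8b* (0.47) and *Ndufa5* (0.44). Brightness bears on these values. Among all events, 10.3% passed where the lowest of the 4 intensities was under 100 and 6.42% where it was 100 or more. Among members the counts were 1 of 19 (5.26%) and 11 of 72 (15.3%). The intensities are whole numbers, and rounding could move a member's shift by at most 0.04.

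Other nuclear genes of the same processes, which the symbols do not catch, leaned towards exclusion. Of 74 listed genes, 34 had an event with a shift, 49 events in all. Past the threshold in either direction were 7 events (14.3%, against 7.24% of all events). They came from 7 of the 34 genes, where 11.4% of all genes had at least 1 such event. Every one of the 7 had more exclusion in set B, and 4.52% of all events were over 0.5. Their median shift was 0.07 against 0.03 for all events. After centring on the median of all events 4 of 49 were past the threshold, all towards exclusion. That share (8.16%) was near the 7.07% of all events. With 50 added 0 of 49 were past it (3.13% of all events).

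The 7 include further factors of the mitochondrial ribosome and its templates. *Dap3* encodes a small subunit protein, and its alternative 5' splice site had exclusion intensities of 161 (set A) and 261 (set B) and inclusion intensities of 791 and 856, a shift of 0.58. *Ptcd3* encodes another small subunit protein, and its 61-base cassette exon had exclusion intensities of 78 and 116 and inclusion intensities of 513 and 511, a shift of 0.58. *Polrmt*, the mitochondrial RNA polymerase, had a 123-base cassette exon with 126 and 196 for exclusion, 401 and 420 for inclusion and a shift of 0.57. In these 3 genes the exclusion path carried the difference. *Polg*, the mitochondrial DNA polymerase, had an alternative 3' splice site at 0.50, just past the threshold. The other events of *Dap3* shifted by -0.11 and 0.16 and those of *Ptcd3* by -0.26 and 0.04.

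The remaining 3 act in import and membrane shape. *Apool*, a subunit of the cristae complex that also holds Immt, had the largest shift of the list (0.67) in a 114-base cassette exon, with 60 and 85 for exclusion and 125 and 111 for inclusion. *Dnajc19*, a cochaperone of the import motor, had a 52-base cassette exon with 839 and 1159 for exclusion, 946 and 912 for inclusion and a shift of 0.52. *Grpel2*, the nucleotide exchange factor of the motor, had an alternative end at 0.52. The other events of *Dnajc19* shifted by -0.06 and 0.07, that of *Apool* by 0.14 and that of *Grpel2* by 0.35, so 0 of the 7 genes had a further event past the threshold. The largest shift towards inclusion was a retained intron of *Tufm*, the mitochondrial elongation factor, at -0.44.

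**Figure D4:**
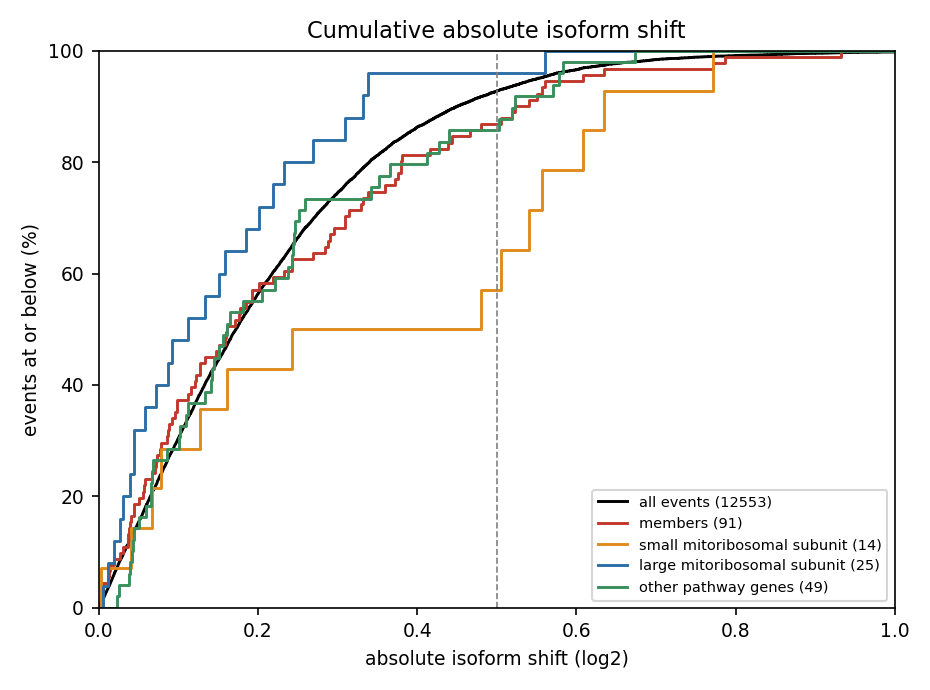
Cumulative share of events (y axis, %) against absolute isoform shift (x axis, log2). Curves show all 12553 events, the 91 members, the large (25) and small (14) mitochondrial ribosomal subunits by symbol, and the 49 events of other pathway genes. The dashed line is 0.5. The members' curve follows that of all events up to the median (0.16 and 0.17) and runs below it at 0.5, and the small subunit lies lowest there.

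Several brain markers had events in the table. Summed event intensities of the neuronal list (5 of 8 genes with an event, led by *Snap25* and *Syt1*) were 44363 (set A) and 42352 (set B), a log2 difference of -0.07, with 4 of 5 genes lower in set B. The neuronal gene higher in set B was *Slc17a7* (0.11). The oligodendrocyte list (4 of 6 genes) differed by -0.04, the astrocyte list (4 of 5) by 0.04, microglia (2 of 4) by 0.02 and endothelium (2 of 4) by -0.08. In these lists 3 of 4, 1 of 4, 1 of 2 and 2 of 2 genes were lower in set B. Each sum is weighted towards its brightest probe sets. *Alas2* of the blood list gave 0.18 at summed intensities of 294 and 332, and *Ins2* of the other tissues 0.27 at 387 and 468, with no event for the defining globin, albumin and muscle markers. The part of these differences in the isoform shifts was not tested.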

How the data were processed

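Brain total RNA of 6 congenic mice was hybridized to splicing arrays. The authors deposited exclusion and inclusion intensities (other, whole numbers) pooled over the arrays of set A and of set B, with event type, symbol and position. The submitters' processing notes name Affymetrix Power Tools. The normalization, background correction and genome build are not given in the sources used here. The authors' own separation scores and q-values, paired and standard, were not used, nor were the intensities of the standard analysis.

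The paired-analysis intensities of the first exclusion path of each event gave the shift, and positions are those of that path. The members and gene lists were chosen with earlier results of these data known. Named events were those past 0.5, the 2 largest per role, every event of *Opa1*, *Mfn1*, *Mfn2* and *Immt*, and the 3 nearest the threshold on each side. Further events and the 7 pathway genes past the threshold, with *Tufm*, were chosen after their values were seen. With pooled values no test was run. Alternatives were thresholds of 0.3 and 1, 50 added to each intensity, an intensity minimum of 100, centring, and the path with the largest shift. All 68 symbols matched RefSeq (GRCm38.p6), 6 as synonyms. The shift was tested on simulated data. The scripts ran under Python 3.11.15 (matplotlib 3.10.9, scipy 1.17.1, pandas 2.3.3, numpy 2.4.6; seed 1).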

Additional observations from a re-analysis of the deposited data

How the results depend on the processing

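No paired analysis was possible because the intensities were pooled over the arrays of each set. For the same reason leaving out a replicate was not run, and precision is limited by 3 arrays a set whose spread is unknown. The count of 12 members and of 12 member genes became 29 and 29 with a threshold of 0.3. Of all events 25.5% and of all genes 35.9% passed it. With a threshold of 1 the counts were 0 and 0 (0.22% of all events, 0.35% of all genes). With 50 added to each intensity they were 5 and 5 (3.13% and 5.03%). With all 4 intensities at 100 or more, 72 member events were left and the counts were 11 and 11 (6.42% and 9.55%). After centring they were 13 and 13 (7.07% and 11.1%). With the path of largest shift, over 92 events, they were 12 and 12 (7.34% and 11.7%). The median absolute shift stayed between 0.14 and 0.19, and the share above 0 between 44.0% and 48.4%. Of 29 named events, 7 of the 12 past the threshold fell below it in size with 50 added (*Cox4nb*, *Mrpl3*, *Mrps18c*, *Mrps2*, *Mrps23*, *Ndufa7* and *Uqcr*), 1 (*Mrps10*) passed it after centring. The 12 past the threshold kept their direction under each alternative. The *Opa1* retained intron, 0.01 as reported, became -0.01 with 50 added and -0.03 after centring, and no other of the 29 changed sign. Signs of shifts near 0 outside the 29 are not stable either: the *Ndufs3* cassette, 0.00 as reported, became -0.02 with 50 added. Over all events, the split of 567 with more exclusion and 342 with more inclusion became 449 and 438 after centring.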
